A study of Mus musculus with 30 samples.

Results

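Pfkfb1, Pfkfb2, Pfkfb3, Pfkfb4, Hk2, Pdk1, Pdk2, Pdk4 and Pdp1 encode enzymes that set how much glucose a muscle fiber breaks down and how much of the resulting pyruvate it burns. The 9 genes were taken by symbol and chosen by earlier results of these data, the RNA levels in LD against ADV mice and their relation to the Dbp/Bmal1 ratio within groups. Each symbol had 1 row in the deposited tables, and 9 of 9 passed the filter on low values, which used the mean over all mice; 12030 genes passed it out of 57186 rows.

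Hexokinase 2, the main hexokinase of skeletal muscle, traps glucose in the cell by phosphorylating it. The PFKFB enzymes make and break down fructose 2,6-bisphosphate, the strongest activator of phosphofructokinase-1, which commits sugar to glycolysis; the isoforms differ in how far they favor synthesis, with Pfkfb3 leaning most strongly to it. At the end of glycolysis the pyruvate dehydrogenase complex turns pyruvate into acetyl-CoA: the PDK kinases shut it off and the phosphatase PDP1 turns it on again. In muscle, Pdk4 is known to climb in fasting and when fatty acids are the main fuel.

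Gastrocnemius muscle, taken with the plantaris, came from male wild-type C57BL/6J mice that were adult when the schedules began and were killed after 64 weeks on them. All mice lived alone with a running wheel and had passed through an entrained period and constant darkness before. The 14 mice of the LD group stayed on a light-dark cycle with light from 8:00 to 20:00, and for the 16 mice of the ADV group the cycle moved 8 h earlier every 4 days. 1 library of poly(A) RNA was made per mouse, so that each value below comes from a different animal. The mice were killed over several hours of the light phase. At that time the ADV mice had light from 8:00 to 20:00, as the LD mice did. No hour for a single animal was given in the sources used here. Differences of clock phase and of schedule can therefore not be told apart in a simple comparison of the groups.

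The libraries held 18875468.5 to 28512674 pairs of reads assigned to exons. These were 90.9 to 91.3% of Homer's library total in LD mice and 91.1 to 92.7% in ADV mice (means 91.2 ± 0.12% and 91.5 ± 0.37%, SD, n = 14 and 16), highest in ADV mice 34 and 25. The 10 markers of skeletal muscle fibers summed to 68912 to 88606 FPKM (fragments per kilobase of exon, scaled to the library's total reads) in LD mice and 71180 to 94032 FPKM in ADV mice. Dbp, a transcription factor driven by the clock, and Bmal1, the core activator of the clock, peak at opposite times of day, and the ratio of their FPKM was used as a measure of the phase of a muscle. Up to 29.3% of the exon bases of Dbp overlap Sphk2 on the other strand, and whether counting used the strand was not given in the sources used here, so this limit applies to each value against the ratio. On the log2 scale this ratio was between -2.14 and 3.31 in LD mice (mean 1.19 ± 1.43, SD, n = 14) and between -2.44 and 1.40 in ADV mice (mean -0.94 ± 0.89, SD, n = 16). The range shared by the groups held 7 LD and 15 ADV mice, and LD mouse 34 stood 2.06 below the next LD mouse.

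In both groups Pdk4 and Pdk2 were the most abundant of the 9 transcripts, followed by Hk2 and Pfkfb3, and Pfkfb2 was the least abundant. FPKM is per length, so these levels can be set side by side. Pdk2 lay above Hk2 in 14 of 14 LD and 16 of 16 ADV mice with no overlap of their ranges, and the same held in LD mice for Pdk1 above Pfkfb2. Of the other neighbors in the order, Pdk4 exceeded Pdk2 in 9 of 14 LD and 10 of 16 ADV mice, and Hk2 exceeded Pfkfb3 in 10 of 14 LD and 16 of 16 ADV mice. Pfkfb1, Pfkfb4, Pdp1 and Pdk1 lay close together, with means of 12.4 to 20.6 FPKM in LD mice and 10.03 to 20.6 FPKM in ADV mice, and their ranges overlapped. The genes differed widely in how much they varied between mice of a group. The coefficient of variation was lowest for Pdk2, at 5.76% in LD and 7.60% in ADV mice, and highest for Pdk4, at 71.3% and 71.0%, with Pfkfb3 next at 51.8% and 54.0%.

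**Figure D1:**
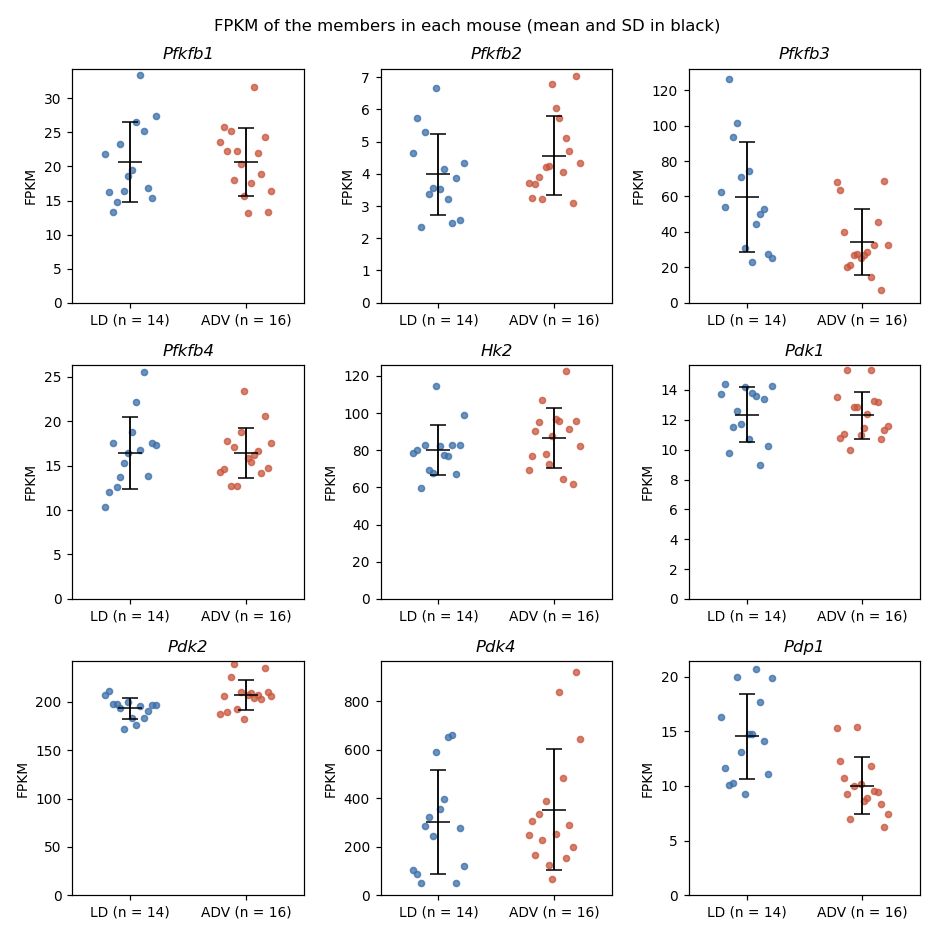
FPKM of each gene (vertical axes, from 0) in 14 LD and 16 ADV mice, 1 point per mouse, with the group mean and SD in black. Pfkfb3 and Pdp1 sat lower in ADV mice with overlapping ranges, and Pdk4 spread from 51.8 to 663 FPKM in LD and from 67.8 to 923 FPKM in ADV mice.

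The 250 bases before the start of each member's transcript were read from the GRCm39 genome, because clock and hormone factors bind short motifs near start sites. The search covered both strands for CACGTG (the E-box, bound by CLOCK and BMAL1), TTANGTAA (the D-box, bound by DBP), TAGGTCA (the ROR element) and AGAACA (a glucocorticoid half-site). The windows of Pfkfb3, Pfkfb2 and Pdk2, whose transcripts make the PFKFB isoform with the largest difference between groups, the least abundant isoform and the most even kinase, each held an E-box. They are shown 5′ to 3′ on the gene's strand with the E-box in capitals, followed by the window of Pdp1, which held none of the motifs and belongs to the other gene that differed between groups.
Pfkfb3, chr2:11506913-11507162, minus strand: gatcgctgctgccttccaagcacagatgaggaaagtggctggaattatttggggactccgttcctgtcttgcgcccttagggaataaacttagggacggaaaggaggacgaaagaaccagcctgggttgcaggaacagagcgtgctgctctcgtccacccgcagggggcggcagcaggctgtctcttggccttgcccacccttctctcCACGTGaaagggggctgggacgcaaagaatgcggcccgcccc
Pfkfb2, chr1:130643472-130643721, minus strand: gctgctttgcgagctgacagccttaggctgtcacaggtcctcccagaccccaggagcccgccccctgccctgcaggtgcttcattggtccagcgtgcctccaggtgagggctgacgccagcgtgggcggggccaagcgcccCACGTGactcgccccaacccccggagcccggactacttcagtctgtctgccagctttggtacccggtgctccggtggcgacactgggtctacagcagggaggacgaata
Pdk2, chr11:94932181-94932430, minus strand: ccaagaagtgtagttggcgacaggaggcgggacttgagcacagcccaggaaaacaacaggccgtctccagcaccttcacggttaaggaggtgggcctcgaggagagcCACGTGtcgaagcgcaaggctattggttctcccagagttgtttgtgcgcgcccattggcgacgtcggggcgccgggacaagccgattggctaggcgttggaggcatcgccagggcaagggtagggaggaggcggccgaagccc
Pdp1, chr4:11966453-11966702, minus strand: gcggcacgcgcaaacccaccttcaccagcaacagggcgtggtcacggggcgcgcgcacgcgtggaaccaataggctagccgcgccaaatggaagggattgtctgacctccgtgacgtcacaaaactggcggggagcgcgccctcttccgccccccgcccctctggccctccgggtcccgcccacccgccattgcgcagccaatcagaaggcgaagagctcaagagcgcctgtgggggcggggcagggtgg
The E-box began at -42 in Pfkfb3, -109 in Pfkfb2 and -143 in Pdk2, counted back from the start. Pfkfb4 held AGAACA at -110, and the windows of Pfkfb1, Hk2, Pdk1 and Pdk4 held none of the 4 motifs. Among the windows of 12028 tested genes, 8.29% held CACGTG, 10.6% AGAACA, 1.33% TTANGTAA and 1.52% TAGGTCA. A match is only a run of letters; binding was not measured.

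Between the schedules, Pfkfb3 and Pdp1 were lower in ADV mice, and none of the 9 genes was higher past the threshold. Pfkfb3 was at 0.57 times and Pdp1 at 0.68 times its LD level, and both are called by edgeR (quasi-likelihood F test on counts, FDR under 0.05 over all genes tested) and pass a fold change of 1.3. The other 7, Pfkfb1, Pfkfb2, Pfkfb4, Hk2, Pdk1, Pdk2 and Pdk4, had edgeR FDRs of 0.163 or more. Over all genes 10.8% of genes were called (5.61% higher and 5.2% lower) and 2.09% were called with that fold; since the 9 genes were chosen with this comparison known, their 2 of 9 is a description and nothing is read from the difference. In whole muscle, fewer cells of a type and less RNA per cell cannot be told apart. Where nothing else is said, a log2 fold change is ADV over LD from edgeR, and the median over all genes was 0.00.

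Pfkfb3, at chr2:11479218-11506912 minus strand, stood at 23.01 FPKM in the lowest LD mouse, 53.6 at the median and 126 in the highest. In ADV mice it was at 7.11, 28.05 and 69.0 FPKM. The groups overlapped: 13 of 16 ADV mice lay below the LD median and 4 of them below every LD mouse, while 5 LD mice lay above every ADV mouse. The means were 59.9 ± 31.05 (SD, n = 14) and 34.4 ± 18.6 FPKM (SD, n = 16), a log2 fold change of -0.81 (standard error, SE, 0.27; FDR 0.0452 in edgeR). Pfkfb3 made up the largest share of the family's summed FPKM, 56.1 ± 15.3% in LD and 42.7 ± 14.01% in ADV mice. The summed FPKM of the 4 genes was 101 ± 27.7 in LD and 76.0 ± 17.3 in ADV mice.

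The call of Pfkfb3 lay near the threshold. It was lost in 8 of 12 other fits. With limma on log2 FPKM the FDR was 0.0518 at a pseudocount of 0.1 and 0.0509 at 1. In edgeR it was 0.0501 with library size alone and 0.0804 with no filter on low genes. With the GC content trend of the libraries taken out it was 0.0553, and with the Dbp/Bmal1 ratio as a covariate 0.320. The log2 fold changes in these fits were -0.86 to -0.77. The call was lost as well with the mice's label number as a block (-0.76, edgeR FDR 0.111). Nor did it hold without a block in the 28 mice with shared numbers (-0.73, edgeR FDR 0.106). It was also lost on leaving out any of LD mice 21, 23, 26, 27, 28, 30, 33 and 34 or of ADV mice 24 to 32, 34 and 36, 19 fits of 30, with edgeR FDRs of 0.0511 to 0.0791 and log2 fold changes of -0.83 to -0.69. DESeq2 gave an FDR of 0.0323. The smallest difference came without LD mouse 23. That mouse had the highest Pfkfb3 of all mice and the lowest Pfkfb1, Pfkfb2, Hk2 and Pdk4 of the LD group. The 8 slow fiber markers summed to 61.4 FPKM in it, against an LD median of 680. The lowest Pfkfb3 of all mice was that of ADV mouse 34, which had the highest share of reads on exons; the part of that share in the differences of Pfkfb3 and Pdp1 was not tested.

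Pfkfb1, the form first known from liver and muscle (chrX:149377474-149426874), was alike in the groups, at 13.4 to 33.4 FPKM in LD mice (median 19.0) and 13.1 to 31.7 FPKM in ADV mice (median 21.2). All but 1 LD mouse lay within the range of the ADV mice, and the log2 fold change was -0.01 (SE 0.13, FDR 0.953 in edgeR). Pfkfb4 (chr9:108820846-108861296) ran from 10.4 to 25.6 FPKM in LD mice (median 16.6) and from 12.7 to 23.5 FPKM in ADV mice (median 16.1). Its 16 ADV values all lay within the LD range, with a log2 fold change of -0.02 (SE 0.11, FDR 0.905 in edgeR). Pfkfb2, the form of heart (chr1:130616920-130643471, minus strand), was at 2.36 to 6.66 FPKM in LD mice (median 3.71) and 3.11 to 7.04 FPKM in ADV mice (median 4.23), a log2 fold change of 0.18 (SE 0.14, FDR 0.390 in edgeR). The Pfkfb2 value needs care. Its exons overlap Gm29427 on the same strand and Yod1 on the other, up to 26.97% of exon bases, and whether counting used the strand was not given in the sources used here.

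As shares of the family, Pfkfb1 held 22.05 ± 8.67% in LD and 28.4 ± 9.20% in ADV mice, Pfkfb4 17.6 ± 6.79% and 22.7 ± 6.78%, and Pfkfb2 4.30 ± 1.99% and 6.23 ± 1.87%. The log2 ratio of Pfkfb3 to Pfkfb1 FPKM was 1.40 ± 1.012 in LD and 0.56 ± 1.004 in ADV mice, and 15 of 16 ADV mice lay below the LD median. Shares of a sum are tied to each other, so the higher shares of the other isoforms in ADV mice go with the lower Pfkfb3 while their own FPKM differed by less than the spread between mice.

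**Figure D2:**
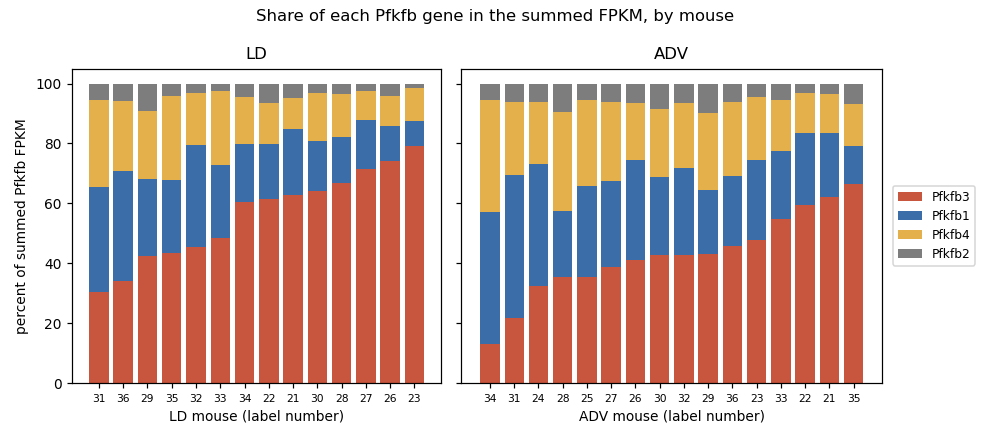
Share of each Pfkfb gene (percent of their summed FPKM, vertical axis) in every mouse, ordered within a group by the share of Pfkfb3; the numbers are the mice's label numbers. Pfkfb3 averaged 56.1% in LD and 42.7% in ADV mice, and the ranges overlapped.

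Hk2 (chr6:82702006-82751435, minus strand) ran from 59.8 to 115 FPKM in LD mice (median 79.5) and from 61.8 to 123 FPKM in ADV mice (median 88.9). 15 of 16 ADV mice lay within the LD range, and the log2 fold change was 0.10 (SE 0.09, FDR 0.498 in edgeR). Hk2 made up 96.9 ± 0.58% of the summed FPKM of Hk1 and Hk2 in LD mice and 96.8 ± 0.45% in ADV mice, so that the second hexokinase of the muscle stayed a minor one in each of the 30 mice. Hk3 and Hkdc1 did not pass the filter.

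Pdk4 (chr6:5483351-5496309, minus strand), the kinase of the fasted state, ran from 51.8 to 663 FPKM in LD mice (median 282) and from 67.8 to 923 FPKM in ADV mice (median 272). The groups covered nearly the same span, with 14 of 16 ADV mice inside the LD range, and the means were 301 ± 215 (SD, n = 14) and 353 ± 250 FPKM (SD, n = 16). The log2 fold change was 0.22 with a standard error of 0.37 (edgeR FDR 0.730), so that differences of well over 1.3-fold either way were not detectable. With the Dbp/Bmal1 ratio as a covariate the estimate was 1.202 (SE 0.66), with an edgeR FDR of 0.410. That fit held 1 slope on the log2 ratio for both groups, while slopes fitted per group were 0.66 in LD and -0.29 in ADV mice. The ratio also differed by group, with log2 means of 1.19 in LD and -0.94 in ADV mice. The estimate therefore rests on the shared slope.

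Pdk2 (chr11:94917084-94932180, minus strand), the widely expressed kinase, ran from 172 to 212 FPKM in LD mice (median 196) and from 183 to 239 FPKM in ADV mice (median 207). 12 of 16 ADV mice lay above the LD median, and the log2 fold change was 0.09 (SE 0.04, FDR 0.163 in edgeR); up to 12.0% of its exon bases overlap Gm53644 on the other strand. After the GC content trend of the libraries was taken out it was 0.00; the Pdk2 transcript has 57.2% GC, the highest of the 9. Pdk1 (chr2:71703568-71734202), a target of the hypoxia factor HIF-1, ran from 8.96 to 14.4 FPKM in LD mice (median 13.0) and from 9.97 to 15.4 FPKM in ADV mice (median 12.0), with a log2 fold change of -0.02 (SE 0.07, FDR 0.845 in edgeR). Pdk4 held 52.0 ± 20.6% of the summed Pdk FPKM in LD and 55.7 ± 15.5% in ADV mice, Pdk2 45.02 ± 19.3% and 41.8 ± 14.7%, and Pdk1 2.88 ± 1.29% and 2.47 ± 0.89%. Pdk3, which did not pass the filter, held under 0.2% in each mouse.

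Pdp1 (chr4:11958184-11966452, minus strand), the phosphatase that reactivates pyruvate dehydrogenase, was at 9.23 FPKM in the lowest LD mouse, 14.4 at the median and 20.7 in the highest. In ADV mice it was at 6.19, 9.46 and 15.4 FPKM. The groups overlapped less than for the other genes: 14 of 16 ADV mice lay below the LD median and 6 of them below every LD mouse, while 5 LD mice lay above every ADV mouse. The means were 14.5 ± 3.90 (SD, n = 14) and 10.03 ± 2.63 FPKM (SD, n = 16), a log2 fold change of -0.56 (SE 0.13, FDR 0.00694 in edgeR), and the call held in 30 of 30 fits that left out 1 mouse. The log2 ratio of Pdk4 to Pdp1 FPKM, kinase over phosphatase, was 3.98 ± 1.26 in LD and 4.86 ± 1.21 in ADV mice, with 11 of 16 ADV mice above the LD median.

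The call of Pdp1 was lost in 2 of 12 other fits. After that GC content trend was taken out it was -0.40 (edgeR FDR 0.0569); the Pdp1 transcript has 38.8% GC, the lowest of the 9, against a median of 50.4% over tested genes. With the Dbp/Bmal1 ratio as a covariate it was -0.33 (edgeR FDR 0.355), a fit in which 0 of 12030 genes were called and 1667 had an unadjusted p under 0.05.

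**Figure D3:**
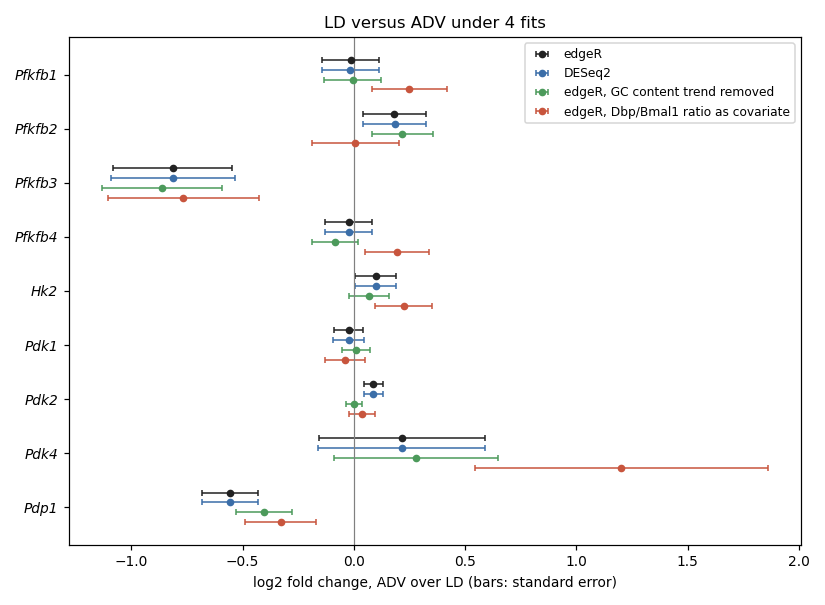
log2 fold change of each gene, ADV over LD (horizontal axis), with its standard error, in 4 fits: edgeR, DESeq2, edgeR with the GC content trend removed, and edgeR with the Dbp/Bmal1 ratio as a covariate. Pfkfb3 and Pdp1 lay below 0 in each. Pdk4 moved from 0.22 to 1.202 when the ratio entered the fit with 1 slope for both groups.

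Within the LD group, Pdk4, Pfkfb4 and Pfkfb1 had the largest positive slopes on the Dbp/Bmal1 ratio, none past the threshold, and in the ADV group the slopes of Pfkfb3 and Pdk4 were the largest in size, none past the threshold. The slope of each gene on the log2 ratio was fitted in edgeR for both groups at once; it is the log2 change per doubling of the ratio. These relations were known when the 9 genes were chosen, so their slopes are a description as well. In LD mice 0 of 9 slopes passed an FDR of 0.05 (48 of all genes, 0.399%), with DESeq2 also 0, and 3 of 9 had an unadjusted p under 0.05 against 12.6% of all genes. In ADV mice 0 of 9 passed (6 of all genes, 0.0499%, DESeq2 also 0), and 0 of 9 had an unadjusted p under 0.05 against 6.70% of all genes. Dbp and Bmal1 form the ratio and are among the genes that edgeR called in each group. These counts over all genes therefore include calls that the ratio itself brings. The difference of the slopes passed for 0 of 9 genes with edgeR, where 0.0% of all genes were called, and with DESeq2, which called 46 of all genes, with 2 of 9 at an unadjusted p under 0.05 against 10.4% of all genes.

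Pdk4 had the steepest slope. In LD mouse 34, with the lowest ratio, it was at 52.0 FPKM, in LD mouse 22 at 89.4 and in LD mouse 21 at 102. The highest levels were those of LD mice 33, 32 and 29, at 663, 655 and 592 FPKM, with log2 ratios of 2.30, 2.50 and 1.76. LD mice 23 and 36 went against this order, with 51.8 FPKM at a log2 ratio of 0.69 and 121 FPKM at 2.73. The order was loose elsewhere too: LD mouse 30, with the highest log2 ratio of 3.31, had 356 FPKM, and LD mouse 26 had 287 FPKM at 0.25. The LD slope was 0.66 (SE 0.20, FDR 0.138 in edgeR), and it stayed between 0.61 and 0.74 on leaving out any 1 mouse. In ADV mice the slope was -0.29 (SE 0.27, FDR 0.921 in edgeR). High and low Pdk4 both occurred at low ratios there: ADV mouse 35 had 923 FPKM at -1.35 and ADV mouse 28 had 67.8 FPKM at -1.54. The sign of that slope turned, to 0.083 (SE 0.29), when a score over clock genes took the place of the ratio. The slopes differed by -0.95 (SE 0.34, FDR 0.280 in edgeR).

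For Pfkfb4 the LD slope was 0.16 (SE 0.05, FDR 0.139 in edgeR) and the ADV slope -0.06 (SE 0.08, FDR 0.940 in edgeR), a difference of -0.22 (SE 0.09, FDR 0.352 in edgeR). With the clock gene score, the LD slope of Pfkfb4 was 0.19 with an edgeR FDR of 0.0457, past the threshold. For Pfkfb1 the slopes were 0.16 in LD (SE 0.06, FDR 0.242 in edgeR) and 0.02 in ADV mice (SE 0.09, FDR 0.993 in edgeR). For Pfkfb3 they were -0.12 (SE 0.15, FDR 0.852 in edgeR) and 0.29 (SE 0.20, FDR 0.884 in edgeR). For Pdp1 both were positive, 0.10 (SE 0.06, FDR 0.578 in edgeR) and 0.12 (SE 0.09, FDR 0.905 in edgeR). The slopes of Hk2, Pdk1, Pdk2 and Pfkfb2 lay between -0.05 and 0.07 in LD and between -0.15 and 0.03 in ADV mice, each with an edgeR FDR over 0.6.

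**Figure D4:**
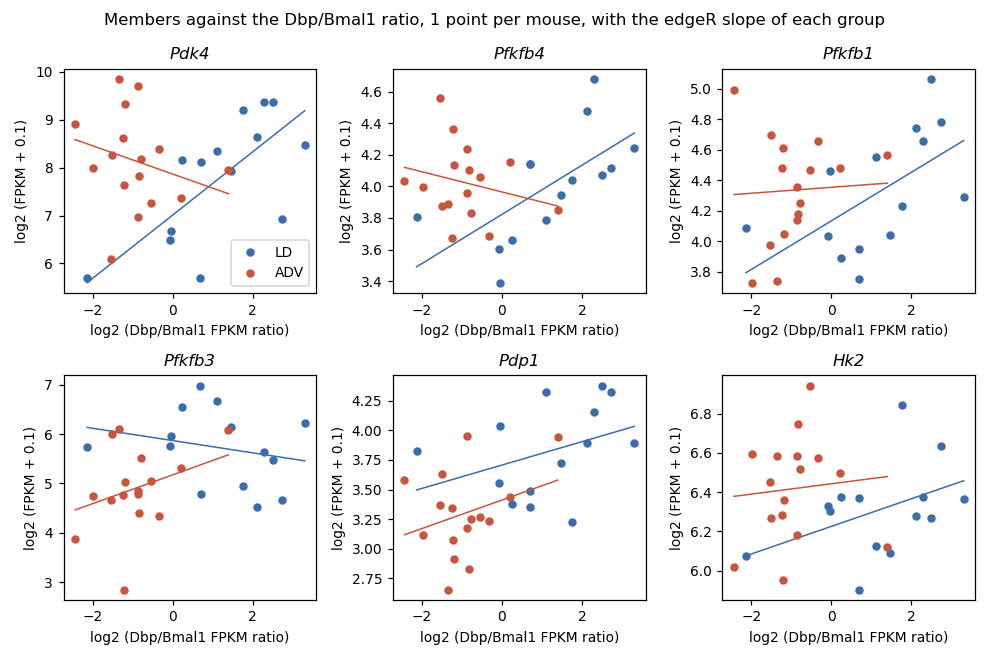
log2(FPKM + 0.1) of 6 genes (vertical axes) against the log2 Dbp/Bmal1 FPKM ratio (horizontal axes), 1 point per mouse, with each group's edgeR slope as a line through its mean. In LD mice the slopes of Pdk4, Pfkfb4 and Pfkfb1 were 0.66, 0.16 and 0.16 and did not pass the threshold, and in ADV mice no slope of these genes did either.

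Correlations across the mice of a group gave the same picture. In the 14 LD mice Pdk4 had a Pearson r of 0.67 with the log2 ratio (permutation p = 0.00710, FDR 0.223 over all genes) and a Spearman rho of 0.68 (permutation p = 0.00889, FDR 0.141). For Pfkfb4 r was 0.64 (permutation p = 0.0136, FDR 0.267) and rho 0.69 (permutation p = 0.00857, FDR 0.140), and for Pfkfb1 r was 0.56 (permutation p = 0.0371, FDR 0.346) and rho 0.65 (permutation p = 0.0150, FDR 0.174). Without LD mice 30 and 34, the farthest from the median ratio, r was 0.56 for Pdk4, 0.74 for Pfkfb4 and 0.72 for Pfkfb1. In the 16 ADV mice the r of the 9 genes lay between -0.29 and 0.39, each with a permutation p over 0.1, and the highest, 0.39 for Pfkfb3 (permutation p = 0.138; rho 0.31, permutation p = 0.245), was -0.0036 without ADV mice 21 and 31. These are 18 of the relations computed, 1 per gene and group. In either group 0 of 12028 genes passed an FDR of 0.05 by permutation; the smallest p that 100000 permutations can give is 1e-05, too large for a lone gene to pass, so these counts say little.

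Across mice of a group the 9 genes did not move as 1 block. Over the deviations of all 30 mice from their group mean, the highest r between members was 0.71, for Pfkfb1 and Pdp1, followed by 0.49 for Pfkfb2 and Hk2 and 0.44 for Pfkfb2 and Pdk1. The lowest was -0.49, for Pfkfb4 and Pdk1. Pdk4 and Pdp1, with opposing effects on pyruvate dehydrogenase, were at -0.09, and Pdk4 stayed between -0.09 and 0.23 with the other 8. Within a group the r of Pdk4 with the other 8 spread wider, from -0.38 to 0.49 in LD and from -0.60 to 0.20 in ADV mice. With Pfkfb4 it was 0.49 in LD (permutation p = 0.0720, FDR 0.338) and -0.60 in ADV mice (permutation p = 0.0150, FDR 0.233). With Pdp1 it was 0.20 in LD and -0.43 in ADV mice. The differences between groups were not tested.

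Pfkfb1 and Pdp1 were most alike in the LD group, where r was 0.85 (permutation p = 0.00021) and rho 0.85 (permutation p = 3.0e-04), and r was 0.77 without LD mice 32 and 36. The permutation FDR of r over all genes was 0.0420 with Pfkfb1 as the reference, for which 1.08% of genes passed, and that of rho was 0.0862. With Pdp1 as the reference the permutation FDR of r was 0.324, and 0.0% of genes passed. Pfkfb2 and Pdk1 had an r of 0.76 in LD mice (permutation p = 0.00167) and a rho of 0.77 (permutation p = 0.00181), with FDRs of 0.0185 and 0.0311 with Pdk1 as the reference, for which 14.7% of genes passed, and of 0.0601 and 0.0964 with Pfkfb2 as the reference; without LD mice 23 and 33, r was 0.60. In ADV mice the same pair had an r of 0.03 (permutation p = 0.919) and a rho of 0.19 (permutation p = 0.472), and Pfkfb1 and Pdp1 an r of 0.57 (permutation p = 0.0209, FDR 0.497) and a rho of 0.54 (permutation p = 0.0340, FDR 0.548). Of the genes against the other references in LD mice, 4.02% passed with Pfkfb4, 0.0831% with Pdk4, 0.0416% with Hk2 and 2.02% with Pfkfb2, and none of those pairs of members did. In ADV mice no 2 members passed, where 0.823% of all genes passed with Pdk1, 5.26% with Pdk2, 0.482% with Pdk4 and 0.0% with each of the others. The strongest relation there was negative, between Pfkfb1 and Pfkfb2, with r of -0.72 (permutation p = 0.00178, FDR 0.165) and rho of -0.74 (permutation p = 0.00147, FDR 0.155), and r of -0.58 without ADV mice 28 and 35. With Pfkfb1 as the reference the permutation FDRs were 0.281 and 0.361. In LD mice this pair had an r of -0.03 (permutation p = 0.912) and a rho of -0.03 (permutation p = 0.916). The differences between groups in these correlations were not tested.

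**Figure D5:**
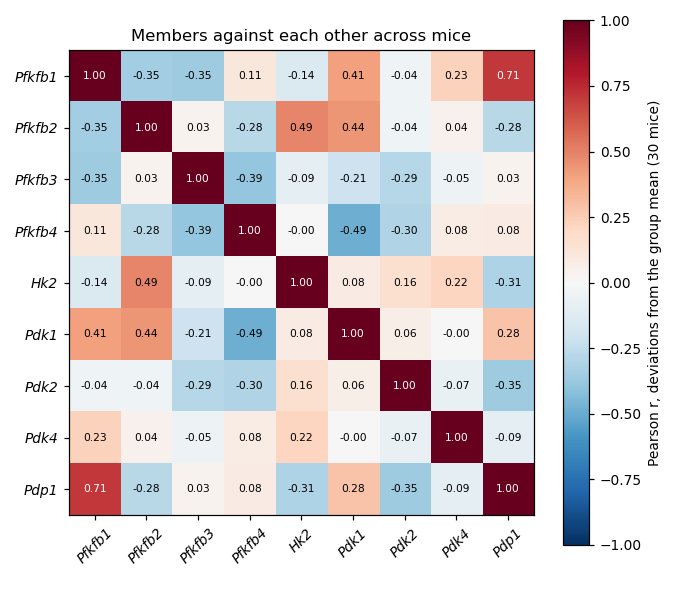
Pearson r between the genes over the deviations of log2(FPKM + 0.1) from the group mean in 30 mice, from -1 (blue) to 1 (red). The strongest positive value between different genes was 0.71, for Pfkfb1 and Pdp1, and the strongest negative one -0.49, for Pfkfb4 and Pdk1.

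The genes with the highest r with each member over the same 30 deviations differed from member to member; they were picked for their r, which is given with no test. Pdk4 stood with genes of fatty acid use and hormone response, Ucp3, the uncoupling protein of muscle mitochondria (r 0.92), Acot2, a mitochondrial acyl-CoA thioesterase (0.92), and Klf9, a factor induced by glucocorticoids (0.85). These held within each group, at 0.95, 0.95 and 0.84 in LD and 0.92, 0.92 and 0.85 in ADV mice. Pfkfb1 stood with Idh1, the cytosolic isocitrate dehydrogenase (0.77), Tmem120b (0.76) and Pik3r1, the regulatory subunit of phosphoinositide 3-kinase (0.75), and Pdp1 with Gm13997 (0.78), Eif2ak2 (0.76) and again Idh1 (0.74). Pfkfb3 stood with Fam83d (0.80), the pseudogene Hmgb1-ps8 (0.80) and Atf7ip (0.78), and Pfkfb4 with Prr33 (0.80), Brd2 (0.80) and Ptpn1, a phosphatase that acts on the insulin receptor (0.78). Pdk1 had Clip4 (0.93), Chpt1, an enzyme of phosphatidylcholine synthesis (0.92), and Rab21 (0.90). Pfkfb2 had Gm29427 (0.96), the gene that shares its exons, Trak2, an adaptor of mitochondrial transport (0.87), and Arfgef2 (0.82). Hk2 and Pdk2 had the lowest leading values, with Vsig2, the chaperone partner Bag3 and Mroh1 at 0.69, 0.69 and 0.68 for Hk2, and Tubgcp2, the dynactin subunit Dctn1 and Poldip2 at 0.73, 0.70 and 0.68 for Pdk2.

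Pdk1 moved with the fiber markers. In LD mice its r with the log2 sum of the 8 slow fiber markers was 0.87 (permutation p = 1.4e-04, FDR 0.00847) and rho 0.85 (permutation p = 2.8e-04, FDR 0.0554), and r was 0.83 without LD mice 23 and 33. 7.49% of all genes passed with that sum in LD and 0.374% in ADV mice. With the sum of the 10 muscle fiber markers, which are mostly those of fast fibers, r was -0.86 (permutation p = 9.0e-05, FDR 0.00442) and rho -0.87 (permutation p = 2.1e-04, FDR 0.00709) in LD and -0.70 (permutation p = 0.00216, FDR 0.0282) and -0.80 (permutation p = 3.1e-04, FDR 0.0548) in ADV mice, where 11.7% and 13.7% of all genes passed. Without LD mice 23 and 35 that r was -0.81, and without ADV mice 25 and 34 it was -0.64. In ADV mice r with the slow markers was 0.58 (permutation p = 0.0160, FDR 0.313) and rho 0.52 (permutation p = 0.0414, FDR 0.568), and r was 0.33 without ADV mice 22 and 24. Pfkfb2 also went with the slow markers in LD mice, at r of 0.78 (permutation p = 7.2e-04, FDR 0.0185) and rho of 0.77 (permutation p = 0.00198, FDR 0.0740), and r of 0.65 without LD mice 23 and 33. In ADV mice its r with them was -0.04 (permutation p = 0.875) and rho -0.11 (permutation p = 0.671), and the difference between the groups was not tested. With the sum of the muscle fiber markers, the r of Pfkfb2 in LD mice was -0.75 (permutation p = 0.00197, FDR 0.0259). Its rho there was -0.65 (permutation p = 0.0141, FDR 0.0910), and r was -0.58 without LD mice 23 and 35. For ADV mice that r was -0.33 (permutation p = 0.215) and rho -0.14 (permutation p = 0.618). The part of the fiber makeup in the values of Pdk1 and Pfkfb2 was not tested.

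The slow markers summed to 61.4 to 1189 FPKM in LD and 289 to 2366 FPKM in ADV mice, with 0 of 8 called between the groups by edgeR and a median log2 fold change of 0.45. For Pfkfb3 in LD mice r with the sum of 8 adipocyte markers was 0.65 (permutation p = 0.0132, FDR 0.417) and rho 0.67 (permutation p = 0.0110, FDR 0.387), and r was 0.66 without LD mice 22 and 36, where 0.0832% of all genes passed; in ADV mice, where 1.64% passed, r was 0.14 (permutation p = 0.617) and rho 0.23 (permutation p = 0.385). That sum was 178 to 375 FPKM in LD and 190 to 695 FPKM in ADV mice, with 2 of 8 markers higher in ADV, Cidea and Fabp4, while Pfkfb3 was lower there. Most of the sum was Fabp4, with a mean of 172 FPKM in LD and 225 FPKM in ADV mice. The means of the sum were 273 and 354 FPKM, so it mainly follows that 1 gene. Of the other lists, 2 of 8 endothelial markers (Pecam1 and Emcn) were higher and 1 of 6 fibroblast markers (Pdgfra) was lower in ADV mice, and 0 of 6 tested leukocyte markers were called. Their sums ran from 59.9 to 80.1 and 69.5 to 88.2 FPKM for endothelium, from 274 to 380 and 241 to 404 FPKM for fibroblasts and from 48.5 to 122 and 40.9 to 88.9 FPKM for leukocytes, in LD and ADV mice. Their part in the lower Pfkfb3 and Pdp1 was not tested.

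Around these switches a few genes of the pathway were called between the groups, to be read beside the 10.8% called over all genes. Of 6 tested genes of glucose entry and phosphorylation, 1 was called, Slc2a1, the basal glucose transporter, higher in ADV mice by 0.40 on the log2 scale (SE 0.10, FDR 0.0121 in edgeR) at 4.03 ± 0.73 against 3.01 ± 0.67 FPKM. The median over the list was 0.07. Of 5 tested genes of the phosphofructokinase step 0 were called by edgeR, and the lowest FDR was 0.133; the muscle phosphofructokinase Pfkm, the target of the PFKFB product, was at 1330 ± 110 FPKM in LD and 1346 ± 118 FPKM in ADV mice (log2 fold change 0.00, SE 0.06).

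Another list of 9 tested genes held pyruvate dehydrogenase, its other regulators and the carrier that brings pyruvate into mitochondria. Of these, 2 were higher in ADV mice, the carrier subunits Mpc1 and Mpc2. They differed by 0.16 and 0.22 on the log2 scale (edgeR FDRs 0.0233 and 0.0334), both under a fold change of 1.3. No tested subunit or other regulator of the complex itself was called, and the lowest edgeR FDR among them was 0.152, for Pdhx. The catalytic subunit Pdha1, the most abundant of that list, was at 225 ± 36.9 FPKM in LD and 232 ± 21.3 FPKM in ADV mice (edgeR FDR 0.792). Pdp2, the second phosphatase of the complex, was at 1.54 ± 0.86 and 1.44 ± 0.85 FPKM, well below Pdp1 (edgeR FDR 0.834). Of 5 genes of lactate and pyruvate exchange, 1 was called, the monocarboxylate transporter Slc16a1, higher in ADV mice by 0.52 on the log2 scale (SE 0.12, FDR 0.00778 in edgeR).

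Of 16 fatty acid genes that respond to PPAR factors 0 were called by edgeR, with a median of 0.18 and the most abundant, Fabp3, at 437 ± 165 FPKM in LD and 609 ± 174 FPKM in ADV mice (edgeR FDR 0.0782). Against the ratio, 1 of these 16 was called in LD mice, Ucp3, with a slope of 0.74 (SE 0.16, FDR 0.0369 in edgeR), beside the 0.66 of Pdk4; in ADV mice it was -0.23 (SE 0.23, FDR 0.924 in edgeR), and the difference of its slopes was -0.97 (SE 0.28, FDR 0.194 in edgeR). Of 18 regulators of fuel genes 1 was higher, Esrra, a nuclear receptor of oxidative genes (0.24, edgeR FDR 0.0135), and 1 was lower, Prkaa2, a catalytic subunit of AMP-activated kinase (-0.27, edgeR FDR 0.0126), both under a fold of 1.3; Prkag3, the most abundant of them, stood at -0.28 (edgeR FDR 0.0848). Of 13 genes of the hypoxia response, which has Pdk1 and Pfkfb3 among its known targets, 1 was called, again Slc2a1, with a median of 0.08.

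Of 12 glucocorticoid response genes 1 was called, Cdkn1a, a cell cycle inhibitor also driven by p53, higher by 0.95 on the log2 scale (SE 0.27, FDR 0.0241 in edgeR), with a median of 0.00. Their slopes on the ratio had a median of 0.12 in LD and -0.18 in ADV mice with 0 of 12 called in each, beside medians of 0.00 over all genes; Fkbp5 had 0.25 and -0.58, a difference of -0.83 (SE 0.28, FDR 0.240 in edgeR), and Klf9 0.24 and -0.08, a difference of -0.32 (SE 0.11, FDR 0.277 in edgeR). The clock lists moved most between the groups: 7 of 11 genes that are high with Dbp were lower in ADV mice and 4 of 6 that are high with Bmal1 were higher, a pattern already known from these data when the lists were made. Dbp itself was at 26.8 ± 14.5 and 8.60 ± 3.39 FPKM and Bmal1 at 10.2 ± 3.14 and 16.1 ± 4.07 FPKM.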

How the data were processed

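The 9 genes and all lists were chosen with earlier results of these data known. Poly(A) RNA of gastrocnemius muscle was sequenced in paired-end reads by the authors with a stranded kit. The authors mapped reads to GRCm39 with STAR 2.7.10a, per the submitters' processing notes, removed those with a mapping quality under 10 and counted them on exons with Homer 4.11. The deposited estimated counts are not normalized; Homer counts each mate as 0.5 read, so 14.8% were not whole and all were rounded. The deposited FPKM values of the authors equal count over exon length and library total to within 5.0e-04.

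Genes with a mean over 20 reads and 0.5 FPKM were tested (12030), with 1 row per symbol. Read pairs on exons numbered 18875468.5 to 28512674 per mouse, so counting error is small for all 9 genes, the lowest of which averaged 461 reads. The rounded counts went into edgeR 4.0.16 (R 4.3.3) with TMM scaling and its quasi-likelihood test, and p-values were adjusted by Benjamini-Hochberg across every tested gene. A second edgeR model held a mean and a slope on the log2 Dbp/Bmal1 ratio per group. Correlations used log2(FPKM + 0.1), 100000 two-sided permutations within a group and adjustment over all genes (scipy 1.17.1). Alternatives were DESeq2 1.42.0, limma 3.58.1 on log2(FPKM + 0.1) and log2(FPKM + 1), DESeq2 size factors, library size alone, no filter, a mean over 100 reads, summed rows, removal of each library's GC content trend, the ratio as a covariate, a clock gene score in place of the ratio, each group fitted alone, label number as a block and leaving out each mouse; the 28 mice with shared numbers without a block were added after seeing the data. The labels do not say that mice were kept or processed in batches. The tests were run on simulated data beforehand. No 2 libraries agreed within counting noise.

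Genes named were the 9, Dbp and Bmal1, the 3 genes most like each of the 9, and in each pathway list those with an FDR under 0.05 and a fold over 1.3, or the most abundant gene where there was none. The clock lists were an exception: of their genes only Dbp and Bmal1 were named, though others passed both limits. Mpc1, Mpc2, Pdp2, Ucp3, Esrra, Prkaa2, Fkbp5 and the called marker genes were named after their values were seen. Transcript starts are those of the tables; promoter sequence, exon overlaps and transcript GC content came from GRCm39 and GENCODE vM39.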

Additional observations from a re-analysis of the deposited data

How the results depend on the processing

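Between LD and ADV mice, edgeR called 2 of the 9 genes and 1301 of all genes. 1 of the 9, Pdp1, was called with limma at either pseudocount, library size alone, no filter, the label number as a block and the 28 mice without a block, and 0 with the GC content trend removed or the Dbp/Bmal1 ratio as a covariate (with DESeq2, 2). Of all genes, 628 were called with no filter, 603 with the GC trend removed, 0 with the ratio as a covariate, 494 with the block and 616 in the 28 mice without it. Leaving out 1 mouse gave 1 to 2 of the 9 and 835 (without LD mouse 28) to 1542 of all genes. For the slope in LD mice, 48 of all genes became 180 with DESeq2, 92 with no filter, 88 with the GC trend removed, 219 with the clock score, 11 with LD mice fitted alone and 5 (without LD mouse 22) to 66 without 1 mouse, and 0 of the 9 became 1 with the clock score. For the slope in ADV mice, 6 became 3 with limma at either pseudocount and with ADV mice fitted alone, 2 with the clock score and 1 (without ADV mouse 21) to 6 without 1 mouse. The cause of these shifts was not tested.

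The following values changed sign. The log2 fold change of Pfkfb1 (-0.01) became 0.012 and 0.011 with limma (pseudocounts 0.1 and 1) and 0.25 with the covariate, that of Pfkfb4 (-0.02) 0.017 and 0.015 with limma, 0.19 with the covariate and 0.021 with the block, and that of Pdk1 (-0.02) 0.011 with the GC trend removed. With the clock score, the ADV slopes of Pfkfb1 (0.02), Pdk2 (-0.03) and Pdk4 (-0.29) were -0.035, 0.011 and 0.083, and the slope differences of Pdk2 and Pdp1 were 0.030 and -0.041. The slope difference of Pdk2 (-0.01) was 0.000153 and 0.000151 with limma and 0.00153 with library size alone. Without 1 mouse, the log2 fold change ran from -0.066 to 0.051 for Pfkfb1 and from -0.065 to 0.050 for Pfkfb4. The ADV slope ran from -0.036 to 0.16 for Pfkfb1, -0.038 to 0.17 for Hk2, -0.025 to 0.082 for Pdk1, -0.046 to 0.0031 for Pdk2 and -0.029 to 0.20 for Pdp1. The slope difference ran from -0.21 to 0.0027 for Pfkfb1 (-0.14), -0.11 to 0.10 for Hk2, -0.0044 to 0.10 for Pdk1, -0.027 to 0.024 for Pdk2 and -0.13 to 0.10 for Pdp1.

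Whether the 14 label numbers that both groups hold pair the mice was not tested. Same-numbered mice correlated at -0.26 to 0.43 (median 0.01, 6 over 0.1), and 3 of the LD mice correlated best with their own number. With the number as a block, the log2 fold change was -0.76 for Pfkfb3 (edgeR FDR 0.111) and -0.51 for Pdp1 (edgeR FDR 0.0255).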
